A study of Rattus norvegicus with 8 samples.

Results

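The TCONS transcripts are the long noncoding RNAs (lncRNAs) of rat liver that carry an identifier beginning with TCONS_, the prefix that the Cufflinks programs give to transcripts assembled from sequencing reads. They were chosen by that prefix alone, and they make up 2173 of the 31243 transcripts of the lncRNA table. The other 29070 carry identifiers of the NONCODE database. Liver RNA came from wild type Sprague-Dawley rats, an outbred strain, in 2 groups. The HFD group of 5 libraries received a high fat diet with 41% of calories from fat, 43% from carbohydrate and 17% from protein. The ND group of 3 libraries received regular chow, listed with 8.5% fat, 59.6% carbohydrate and 20.3% protein. The chow percents do not add up to a whole, so they may not be on the same scale as those of the high fat diet. Each diet had 12 rats in all, and the labels give an age of about 22 weeks beside a feeding time of 24 weeks, a difference that was not resolved. The labels do not tie a library to a single rat. The stated purpose was to find lncRNAs that change in the liver when blood triglycerides are raised.

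An lncRNA is a transcript, longer than the classes of small RNA, that is not known to encode a protein. Some lncRNAs act in the nucleus on nearby genes, some bind proteins or microRNAs, and some are the precursors from which microRNAs are cut. Assembly from reads joins overlapping fragments into transcript models, so it can find transcripts that no database holds, and it can also return pieces of known genes, such as retained introns and extended ends.

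Deposited gene counts summed to 12678616 to 36152937 per library. They fell into a deep set of 4 libraries (HFD-1, HFD-2, ND-1 and ND-3, from 30501673 counts) and a shallow set of 4 (HFD-3, HFD-4, HFD-5 and ND-2, up to 18401981 counts). The 8 hepatocyte markers, among them albumin, summed to 69307 to 72061 FPKM (fragments scaled by transcript length and library size) in HFD and 63772 to 68657 FPKM in ND livers. The 8 Kupffer cell markers summed to 215 to 611 FPKM in HFD and 258 to 367 FPKM in ND livers. Of 5 pancreas markers 3 were above 0, with sums of 5.38 to 12.1 FPKM in HFD and 7.24 to 8.40 FPKM in ND livers, and Ctrb1 and Prss1 were at 0 in every library. Of 4 adipocyte markers 3 were above 0, with sums of 16.7 to 22.6 FPKM in HFD and 15.7 to 18.6 FPKM in ND livers, and Plin1 was at 0 in every library. The TCONS transcripts held 5.35% to 6.74% of the estimated lncRNA fragments of a library. In bulk tissue, fewer cells of a type and less RNA per cell cannot be told apart.

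Several microRNA genes lie inside the loci of TCONS transcripts, and their mature sequences are shown because they are the products of known function that these loci overlap. Base positions below are on Rnor_6.0, the build named in the submitters' processing notes, and the sequences are RefSeq's for GRCr8, written 5′ to 3′ with the seed (bases 2 to 8, which pair with target messenger RNAs) in capitals. The locus of TCONS_00088864 (847 nt, chromosome 15, 100145026 to 100187292) contains the miR-17 cluster, whose microRNAs promote proliferation of many cell types. The locus holds Mir17, Mir18a, Mir19a, Mir20a, Mir19b1 and Mir92a1. The main arms of these 6 genes carry 4 seeds, since miR-17-5p shares its seed with miR-20a-5p, and miR-19a-3p with miR-19b-3p.
rno-miR-17-5p: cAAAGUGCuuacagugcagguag
rno-miR-20a-5p: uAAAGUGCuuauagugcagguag
rno-miR-18a-5p: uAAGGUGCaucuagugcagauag
rno-miR-19a-3p: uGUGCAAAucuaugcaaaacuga
rno-miR-19b-3p: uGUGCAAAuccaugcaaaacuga
rno-miR-92a-3p: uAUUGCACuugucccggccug
TCONS_00088864 stood at 9.39, 11.5, 14.7, 22.1 and 22.6 FPKM in the 5 HFD livers, against 14.7, 10.95 and 16.3 FPKM in the 3 ND livers. The diets overlapped, with a log2 difference of 0.13 (limma adjusted p = 0.989).

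Another 5 TCONS transcripts share 1 locus on chromosome X (74361186 to 74518463) with Mir421 and Mir374. Mir3588 lies in the locus of TCONS_00054496 on chromosome 11 (16088563 to 16100153), a transcript of 1053 nt.
rno-miR-421-3p: aUCAACAGacauuaauuggg
rno-miR-3588: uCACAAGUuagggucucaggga
The highest of the 5 on chromosome X was TCONS_00256170, at 7.10 ± 2.06 FPKM in HFD and 9.09 ± 0.816 FPKM in ND livers (SD, n = 5 and n = 3; limma adjusted p = 0.982). TCONS_00054496 stood at 11.7, 13.4, 10.6, 5.05 and 12.5 FPKM in HFD livers, against 19.1, 13.1 and 18.1 FPKM in ND livers. HFD-2 lay above ND-2, so the diets overlapped, and the log2 difference was -0.68 (limma adjusted p = 0.963). In all, 11 microRNA genes lie in or at TCONS loci, and 9 of them had a mature sequence in RefSeq. The levels given here are those of the long transcripts. The deposited gene values also include small RNA genes, among them Mir18a, and those of the microRNA genes are not given here. The level of a mature microRNA was not measured. No genome of the files' build was used here, so the sequences of the TCONS transcripts themselves are not printed.

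The TCONS transcripts were longer than the NONCODE transcripts and farther from known genes. Their length ran from 204 to 19970 nt with a median of 1333 nt, against a median of 610 nt for NONCODE. They fell into 1387 loci. Of these transcripts, 805 were alone at their locus, 697 shared it with a NONCODE transcript and 671 only with other TCONS transcripts. The locus of 945 of 2173 TCONS transcripts (43.5%) overlapped a gene, against 77.2% of NONCODE transcripts. The other 1228 overlapped no gene, at a median distance of 16271 bases from the nearest, and 340 of them lay within 5000 bases of one. In all pairs of lncRNAs whose deposited positions overlap, 15946 in number, the start and the end were the same. The deposited position is therefore that of the whole locus and not of the single transcript, and neither exons nor the overlap of a single transcript with a gene can be read from it. In each TCONS transcript the length was under the locus span, by at least 50 bases, while in 9871 NONCODE transcripts (34.0%) length and span were equal.

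Chromosome 2 held 256 TCONS transcripts (11.8%, against 7.14% of NONCODE transcripts) and chromosome 1 held 232 (10.7%, against 12.1%). Chromosome Y held 5, and each was above 0 in all 8 libraries. The extremes of size were TCONS_00155121, with 19970 nt, in the ceramide synthase gene Cers6, and TCONS_00104601, with 204 nt, in Fancc, a DNA repair gene. TCONS_00155121 had 31.9, 29.7, 26.9, 22.1 and 17.2 FPKM in HFD livers, against 12.3, 10.3 and 18.0 FPKM in ND livers, with HFD-5 just below ND-3 (log2 difference 0.90, limma adjusted p = 0.740). The widest locus, 756632 bases on chromosome 5 (150955956 to 151712587), belongs to TCONS_00194937 and covers many genes, Ahdc1 with the largest overlap.

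Most TCONS transcripts were expressed at a low level in every liver. Over all 8 libraries the median of the mean FPKM was 5.43, 58 transcripts reached 100 FPKM or more and 7 were listed at 0 in every library. FPKM of at least 0.5 in at least 3 libraries was found for 2070 (95.3%), the transcripts tested below, against 61.0% of NONCODE transcripts. Over all transcripts the median was lower for NONCODE, at 2.11 FPKM, and among tested transcripts the order was the other way, with 5.82 FPKM for TCONS and 11.7 FPKM for NONCODE. Per library, 1794 to 1955 TCONS transcripts reached 0.5 FPKM. That number was 1855 ± 67.8 in HFD and 1904 ± 75.7 in ND livers (SD, n = 5 and n = 3; exact permutation p = 0.161, 2-sided, where 56 arrangements allow no p under 0.0179). It followed depth, at 1928 to 1955 in the 4 deep libraries, above the 1794 to 1817 of the shallow ones. TCONS transcripts made up 3.55 ± 0.939% of all lncRNA FPKM in HFD and 3.66 ± 0.309% in ND livers (exact permutation p = 0.839), and without the 10 transcripts of highest mean FPKM the shares were 1.28 ± 0.110% and 1.28 ± 0.0820%.

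The deposited FPKM of a short transcript was higher than that of a long one at the same number of fragments per nucleotide. Relative to transcripts over 3000 nt, it was 4.51 times as high at 201 to 250 nt, 3.06 times at 251 to 300 nt, 2.03 times at 301 to 400 nt and 1.11 times at 1001 to 2000 nt. The 5 highest transcripts should be read with that scale. TCONS_00026252 (241 nt), at the cytochrome P450 gene Cyp2c6v1, averaged 35987 ± 11843 FPKM in HFD and 41533 ± 3206 FPKM in ND livers, and its length factor was 3.87. The gene itself stood at 840.0 ± 306 FPKM in HFD and 523 ± 179 FPKM in ND livers, on another scale. Gene FPKM follows the gene counts of a library (36152937 in ND-1), and lncRNA FPKM about follows its lncRNA fragments (4.32e+06 in ND-1). At the same number of fragments per base an lncRNA therefore has the higher FPKM, and levels of lncRNAs and genes cannot be compared. Both levels are also uncertain, because P450 genes have near-identical copies that share reads. TCONS_00115497 (227 nt, factor 4.74) lies where the spans of the carboxylesterase genes Ces1d and LOC501233 overlap, and it had 1521, 1296, 946, 457 and 294 FPKM in HFD livers, against 365, 187 and 434 FPKM in ND livers. HFD-5 was within the ND range. Its log2 difference was 1.29 ± 0.53 (SE, limma adjusted p = 0.912), and that of Ces1d was 1.04 ± 0.29 (edgeR adjusted p = 0.489). Reads of these related genes may be split between them.

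TCONS_00179823 (215 nt, factor 5.17) and TCONS_00181862 (1234 nt, factor 1.13) are the 2 highest of a block on chromosome 4 between 154764408 and 154997271. This block of 6 loci with 19 TCONS transcripts was singled out after its values were seen. It lies beside LOC100911833 (murinoglobulin-2-like) and overlaps LOC297568 (alpha-1-inhibitor III), genes of the alpha-2-macroglobulin family of plasma protease inhibitors. TCONS_00179823 had 491, 3743, 3134, 3167 and 3812 FPKM in HFD livers, against 3962, 3332 and 5379 FPKM in ND livers. TCONS_00181862 had 401, 1722, 1429, 1372 and 1688 FPKM in HFD livers, against 1880.5, 1512 and 2018 FPKM in ND livers. HFD-1 was far below the other 7 libraries for both. It was the lowest library for 10 of the 19 transcripts, and their FPKM summed to 1535 in HFD-1, against 5764 to 9829 in the other libraries. LOC297568 stood at 50.5 FPKM in HFD-1, against 209.5 to 268 FPKM in the others. LOC100911833 stood at 1334 FPKM in HFD-1, against 1908 to 2598 FPKM in the others. Neither TCONS transcript differed between the diets (limma adjusted p = 0.976 for both). These genes are near-identical copies, so their separate levels are uncertain.

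Among transcripts outside genes, the next highest were TCONS_00022871 (392 nt, factor 1.88), near Cyp2c7, and TCONS_00180984 (315 nt, factor 2.41), of the same locus as TCONS_00179823. TCONS_00022871 had 589, 691, 330.2, 679 and 444 FPKM in HFD livers, against 581, 452 and 207 FPKM in ND livers (limma adjusted p = 0.976). TCONS_00180984 had 75.8, 472, 452, 360.3 and 395 FPKM in HFD livers, against 738, 297 and 563 FPKM in ND livers (limma adjusted p = 0.976). The diets overlapped for both, and HFD-1 was again the lowest at the chromosome 4 locus.

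TCONS_00022299 (400 nt, factor 1.85, chromosome 1, 11904027 to 11904532) overlaps no gene and lies 1909 bases from a gene of 5.8S ribosomal RNA. It had 2454, 2038, 19927, 23051 and 18183 FPKM in HFD livers, against 2254, 18779 and 2558 FPKM in ND livers. The levels split by depth set and not by diet. The 5_8S_rRNA gene beside it stood at 90.8 to 119.7 FPKM in the 4 deep libraries, and the 4 shallow libraries held 279 to 560.0 FPKM. In a fit with diet and depth set together, 5 of 2070 TCONS transcripts differed between the depth sets (limma adjusted p under 0.05; 93 of 19799 lncRNAs, 0.470%, or 0.242% of TCONS). The log2 difference, deep minus shallow, was -3.10 ± 0.14 for TCONS_00022299 (limma adjusted p = 6.87e-05), -4.88 ± 0.40 for TCONS_00210110 and -0.86 ± 0.14 for TCONS_00107546. It was 6.003 ± 0.52 for TCONS_00189640, in the F-box gene Fbxo10, and 3.94 ± 0.58 for TCONS_00128295. TCONS_00210110 (470 nt, chromosome 6, 30640375 to 30641338) overlaps the small genes AABR07063425.1 and AABR07063425.2 and lies inside AABR07063425.3 (30638738 to 30643594). It ranged from 8.98 to 22.3 FPKM in the deep libraries, and the shallow ones held 234 to 728 FPKM. The labels say nothing of what sets the depth sets apart.

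**Figure D1:**
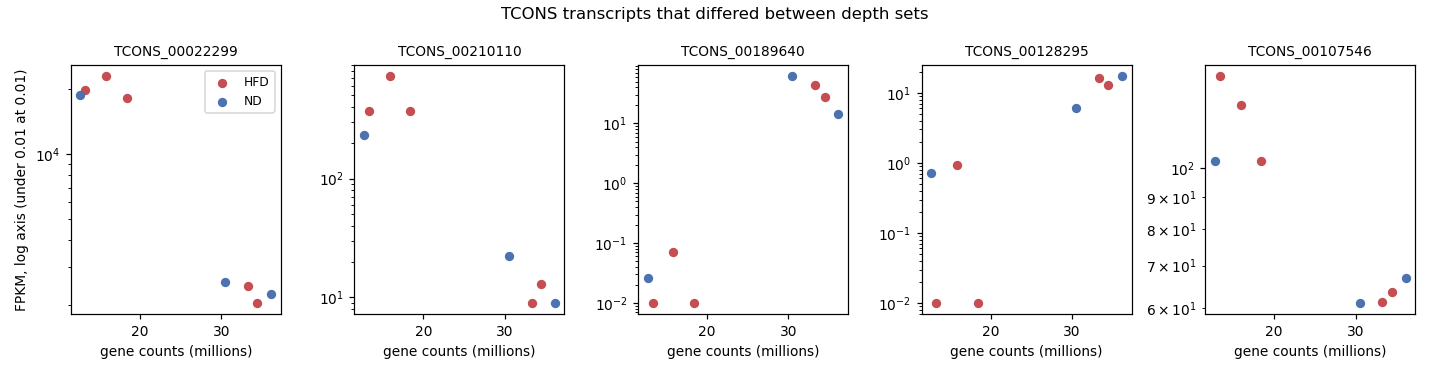
FPKM (log axis) of the 5 TCONS transcripts that differed between depth sets, against the total gene counts of the library, with 1 point per library coloured by diet. TCONS_00022299, TCONS_00210110 and TCONS_00107546 are higher in the 4 shallow libraries and TCONS_00189640 and TCONS_00128295 in the 4 deep ones, with both diets in each cluster.

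The diet comparison asked which TCONS transcripts differ between the livers of HFD and ND rats. It was made on log2(FPKM + 0.5) with limma over all 19799 tested lncRNAs. Of 2070 TCONS transcripts, 1 passed at a Benjamini-Hochberg adjusted p under 0.05, where 2 of all 19799 lncRNAs passed (0.0101%). It was lower on HFD, as was 1 of all lncRNAs (0.00505%), and the other lncRNA was higher (0.00505%). At an unadjusted p under 0.05 there were 149 TCONS transcripts (7.20%), 56 with a higher and 93 with a lower fitted value on HFD, against 5.21% of all lncRNAs (2.63% higher and 2.58% lower) and 4.97% of NONCODE transcripts. The diets did not overlap for 33 TCONS transcripts higher on HFD (1.59%, against 1.68% of all lncRNAs) and 65 lower on HFD (3.14%, against 2.14%). The median log2 difference, HFD minus ND, was -0.07 for TCONS and -0.02 for all lncRNAs. Of all-or-none patterns, with every library of 1 diet under 0.5 FPKM and every library of the other at or above it, 2 TCONS transcripts had the low side in HFD (0.0966%, against 0.0859% of all lncRNAs) and 2 in ND (0.0966%, against 0.0758%).

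**Figure D2:**
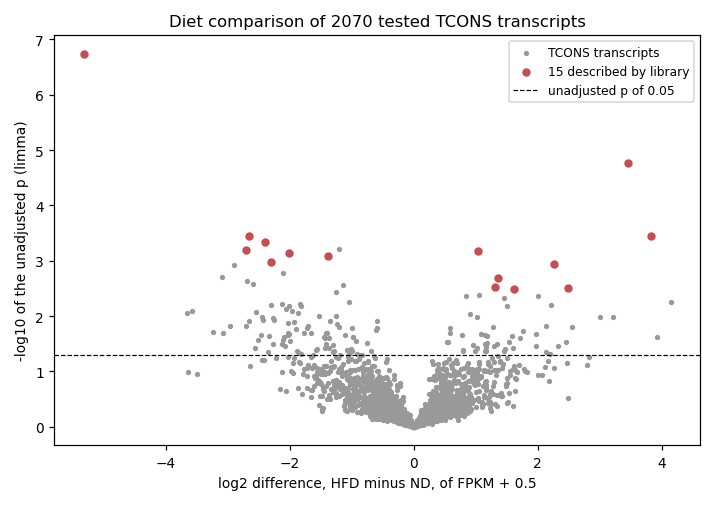
Log2 difference of FPKM + 0.5, HFD minus ND, against -log10 of the unadjusted limma p for the 2070 tested TCONS transcripts, 1 point each. Red points are the 15 transcripts described by library, the dashed line is an unadjusted p of 0.05, and 1 transcript, TCONS_00183685 at -5.33, stands apart.

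TCONS_00183685 (2460 nt, chromosome 5, 124696658 to 124699196) lies inside Ppap2b, which encodes a phosphatase of phosphatidic acid and lysophosphatidic acid. It had 0.0142, 0.0164, 0.0106, 0.0778 and 0.0222 FPKM in HFD livers, against 23.6, 16.7 and 22.5 FPKM in ND livers. Every HFD liver lay near 0 and every ND liver well above it. This held within the deep and the shallow libraries alike. The log2 difference was -5.33 ± 0.41 (SE, limma adjusted p = 0.00358). In fragments, the HFD livers held 0.132, 0.150, 0.0447, 0.365 and 0.111, all under 1, and the ND livers 219.6, 73.5 and 179. Against a floor of 3 fragments per library, which is 0.335 to 0.742 FPKM in the HFD libraries, the level as assigned was at least 38.1-fold lower on HFD. These fragments are estimates, and another transcript of the same locus can hold the same reads, so the floor does not bound the true level. Its adjusted p was 0.0505 without ND-1 and 0.0604 without ND-3.

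A transcript of 2468 nt, TCONS_00183684, has the same locus. It had 67.9, 89.0, 59.3, 132 and 98.9 FPKM in HFD livers, against 139, 58.2 and 72.3 FPKM in ND livers, with a log2 difference of 0.04 ± 0.32 (limma adjusted p = 0.998). The diets overlapped for this transcript. TCONS_00183685 made up 0.0209%, 0.0184%, 0.0178%, 0.0591% and 0.0224% of the locus in HFD livers, against 14.5%, 22.3% and 23.8% in ND livers. With 2 transcripts at a locus, 1 share fixes the other, so the 2 TCONS transcripts that passed in a fit of locus shares are 1 result (limma adjusted p = 0.00129 for each, among 1236 TCONS of 7251 lncRNAs; 2 passed, 0.0276%, which is 0.0138% in each direction). The ratio of TCONS_00183685 to Ppap2b also fell on HFD (log2 difference -5.50, limma adjusted p = 0.00113), the 1 of 742 TCONS transcripts that passed in that fit (1 of 13934 lncRNAs, 0.00718%). At an unadjusted p under 0.05 the ratio fit held 41 TCONS transcripts (5.53%, against 4.12% of all lncRNAs) and the share fit 63 (5.10%, against 4.65%). Ppap2b itself stood at 76.9 ± 20.3 FPKM in HFD and 69.0 ± 25.1 FPKM in ND livers (edgeR adjusted p = 0.993). The lengths of both transcripts differ by few bases, so reads can belong to either, and the part of their division in the result was not tested.

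**Figure D3:**
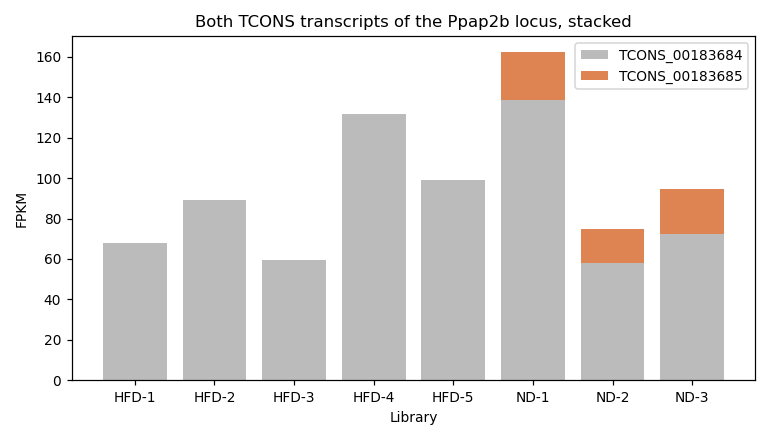
Stacked bars of FPKM (linear axis from 0) of TCONS_00183684 (grey) and TCONS_00183685 (orange) in each library, HFD livers left and ND livers right. The orange part is 16.7 to 23.6 FPKM in the 3 ND livers and under 0.1 FPKM in the 5 HFD livers, while the grey part overlaps between the diets.

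The next transcripts did not pass. With TCONS_00183685, they are those of smallest p in each direction, 8 higher and 7 lower on HFD, among those with a mean of at least 1 FPKM and diets that do not overlap, so the separation of the diets is part of how they were chosen. Of the transcripts with higher values on HFD, TCONS_00204310 (610 nt, chromosome 6, 97110065 to 97132306) had the smallest p. It had 9.06, 5.06, 3.83, 4.80 and 5.36 FPKM in HFD livers, against 0.130, 0 and 0.000529 FPKM in ND livers (log2 difference 3.45 ± 0.45, limma adjusted p = 0.113). Its locus overlaps Syt16, a synaptotagmin gene that was listed at 0 in every library. The other 3 TCONS transcripts of this locus had lower means on HFD, as a description. TCONS_00201663 had 0.960, 1.03, 1.13, 1.27 and 0 FPKM in HFD livers, against 3.17, 1.74 and 4.25 FPKM in ND livers, with no overlap of the diets (log2 difference -1.43, limma adjusted p = 0.905). TCONS_00206009 was under 0.01 FPKM in every HFD liver and at 0, 0 and 8.45 FPKM in ND livers, and TCONS_00206008 was under 0.01 FPKM in every HFD liver and at 0, 3.27 and 8.86 FPKM in ND livers.

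TCONS_00162227 is a long transcript of 5227 nt that overlaps no gene and lies 3326 bases from Nfe2l2, which encodes NRF2, the regulator of the antioxidant response. It had 506, 265, 415, 292 and 172 FPKM in HFD livers, against 126, 88.0 and 153 FPKM in ND livers (log2 difference 1.36 ± 0.33, limma adjusted p = 0.520). It was the most abundant of these, and HFD-5 lay close to ND-3. Nfe2l2 stood at 61.5 ± 16.9 FPKM in HFD and 47.3 ± 11.4 FPKM in ND livers (edgeR adjusted p = 0.993).

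TCONS_00162561 (448 nt, chromosome 3, 171222334 to 171222971) lies 2463 bases from Pck1, the gene of the gluconeogenic enzyme PEPCK. It had 14.7, 33.2, 39.4, 28.0 and 15.7 FPKM in HFD livers, against 5.92, 0 and 1.16 FPKM in ND livers (log2 difference 3.83 ± 0.72, limma adjusted p = 0.324). The highest ND liver was ND-1. These ND levels rest on 6, 0 and 1 estimated fragments. Pck1 was also highest among ND livers in ND-1, at 1475 FPKM, against 329 FPKM in ND-2 and 701 FPKM in ND-3. In HFD livers Pck1 had 1017, 688, 1496, 1496 and 1534 FPKM, and the transcript did not follow it. HFD-2, lowest for Pck1, had 33.2 FPKM of the transcript, and HFD-5, highest for Pck1, had 15.7 FPKM.

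The other 5 higher on HFD were TCONS_00026247, TCONS_00130784, TCONS_00160748, TCONS_00203894 and TCONS_00061233, with limma adjusted p of 0.354 to 0.591. TCONS_00026247 (947 nt, chromosome 1, 147185710 to 147218344) overlaps no gene and had 57.8, 54.9, 38.0, 67.7 and 46.3 FPKM in HFD livers, against 27.4, 25.96 and 21.9 FPKM in ND livers. TCONS_00130784, in Naip6, a gene of an inflammasome receptor family, had 3.86, 1.63, 1.18, 1.40 and 2.22 FPKM in HFD livers and was listed at 0 in the ND livers. Its estimated fragments in HFD livers were 24.2, 10.1, 3.38, 4.44 and 7.52, some of them close to a floor of 3. Against that floor in the ND livers, the level as assigned was at least 2.99-fold higher on HFD. Its locus holds 7 lncRNAs, 5 of them TCONS, and TCONS_00133538 of that locus was at 0 in HFD-3 and in ND-1. The part of the division of reads between them was not tested, so the floor does not bound the true level. Naip6 itself did not follow, at 0.938 ± 0.254 FPKM in HFD and 1.05 ± 0.135 FPKM in ND livers. TCONS_00160748 lies in the kinase gene Tlk1 and had 10.4, 13.5, 12.9, 11.2 and 14.0 FPKM in HFD livers, against 3.98, 3.28 and 7.79 FPKM in ND livers. TCONS_00203894, far from any gene, had 10.5, 3.78, 3.03, 12.2 and 5.89 FPKM in HFD livers, against 1.16, 1.57 and 0 FPKM in ND livers. TCONS_00061233 lies in Ppp1cc, a catalytic subunit of protein phosphatase 1. The transcript has 283 nt and averaged 28.8 ± 15.2 FPKM in HFD and 8.58 ± 3.05 FPKM in ND livers. These levels rest on few estimated fragments, at 9, 5, 10, 6 and 5 in HFD livers, against 4, 1 and 3 in ND livers. Ppp1cc, with 993 to 3200 counts per library, stood at 26.7 ± 2.78 FPKM in HFD and 26.8 ± 1.27 FPKM in ND livers.

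Of those lower on HFD, a pair of neighbouring loci on chromosome 10 held 3 TCONS transcripts with low levels on HFD. TCONS_00040577 (5190 nt, 47548051 to 47581567) lies 1706 bases from Aldh3a2, the fatty aldehyde dehydrogenase gene, and had 3.09, 1.57, 1.502, 2.07 and 2.08 FPKM in HFD livers, against 8.41, 14.9 and 7.03 FPKM in ND livers (limma adjusted p = 0.354). TCONS_00047132 (1912 nt, 47589246 to 47591930) lies in Slc47a2, a gene of a multidrug and toxin extruder, and had 0.142, 0.577, 0.312, 0.281 and 0.787 FPKM in HFD livers, against 2.41, 10.5 and 5.82 FPKM in ND livers (limma adjusted p = 0.354). TCONS_00047127, which shares the locus of TCONS_00040577, averaged 0.335 ± 0.245 FPKM in HFD and 6.03 ± 5.99 FPKM in ND livers (limma adjusted p = 0.565). ND-2 was the highest library for all 3. Aldh3a2 stood at 189 ± 20.9 FPKM in HFD and 196 ± 11.2 FPKM in ND livers, and Slc47a2 stayed under 0.15 FPKM in every library.

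The other 4 lower on HFD were TCONS_00227807, TCONS_00183499, TCONS_00213249 and TCONS_00162736, all outside genes. TCONS_00213249 (389 nt), 8728 bases from the amino acid transporter gene Slc38a1, averaged 58.2 ± 18.7 FPKM in HFD and 152 ± 53.5 FPKM in ND livers (limma adjusted p = 0.375). TCONS_00162736 averaged 11.02 ± 8.41 FPKM in HFD and 46.8 ± 6.77 FPKM in ND livers (limma adjusted p = 0.418), with HFD-5 at 25.2 FPKM nearest to the ND livers. TCONS_00227807 had 0.257, 0, 0.552, 0 and 0.467 FPKM in HFD livers, against 4.50, 4.81 and 3.04 FPKM in ND livers, and TCONS_00183499 had 0.161 to 0.891 FPKM in HFD livers, against 4.02 to 4.74 FPKM in ND livers. In both, each HFD library held at most 3 estimated fragments, and neither passed (limma adjusted p = 0.324 and 0.334). Against a floor of 3 fragments, the levels as assigned were at least 6.60-fold and 5.69-fold lower on HFD. TCONS_00227807 shares its locus with other TCONS transcripts, so its fragments are a divided estimate and the floor does not bound its level.

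**Figure D4:**
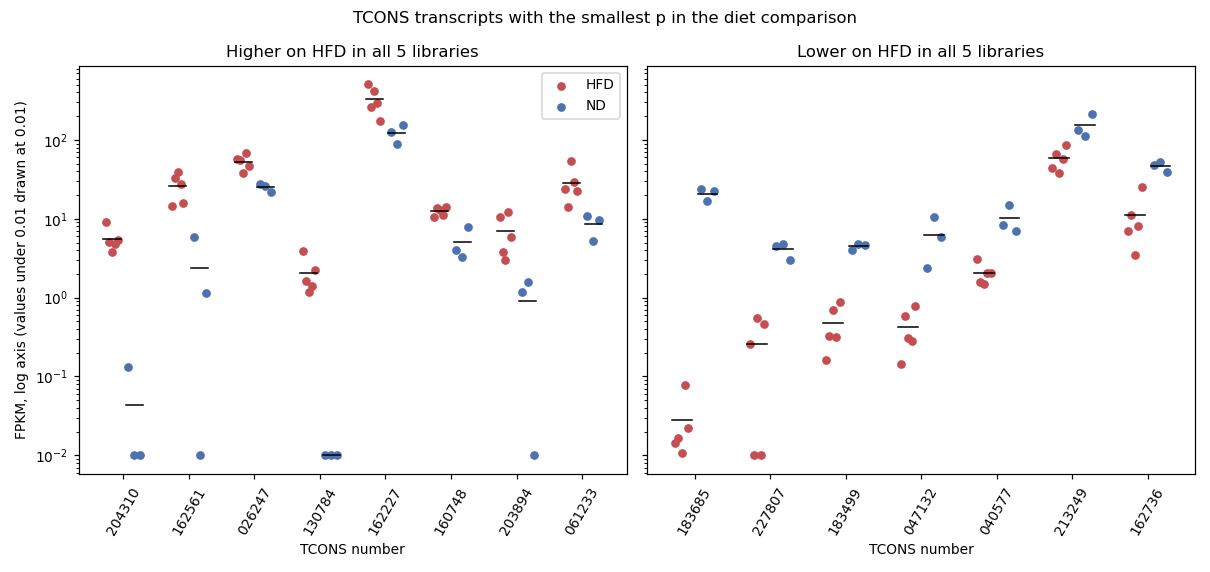
FPKM (log axis, values under 0.01 drawn at 0.01) of the 8 higher and 7 lower TCONS transcripts with the smallest p, with 1 point per library, HFD in red left of ND in blue, and the mean as a line. All 5 HFD livers lie above the 3 ND livers in the left panel and below them in the right panel, which is how the transcripts were chosen, and 1 of the 15, TCONS_00183685, passed.

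The genes that TCONS transcripts overlap were looked at as a group. They were 592 genes, of which 510 could be tested. By edgeR's quasi-likelihood test 0 of them passed (1 of 14148 genes, 0.00707%), 40 had an unadjusted p under 0.05 (7.84%, against 5.71% of all genes), and DESeq2 called 5 (0.980%, against 0.968%). These 5 were Pdgfc, a growth factor gene, and Ces1d, higher on HFD, and Wfdc21, Elovl6, a fatty acid elongase gene, and Acmsd, an enzyme gene of tryptophan breakdown, lower on HFD. Over 742 TCONS transcripts with an expressed overlapping gene, the log2 differences of transcript and gene had a Pearson r of 0.244 and a Spearman rho of 0.256, and 417 pairs (56.2%) had the same sign. Both values of a pair come from the same libraries. Whether counting used strand is not stated, so a transcript's reads cannot be told from the gene's, and transcripts of 1 gene are not independent. The transcript had a higher mean FPKM than the gene in 493 pairs (66.4%). The FPKM of lncRNAs and of genes are scaled to different totals, so this does not show which was more abundant. After TCONS_00183685, the ratios of smallest p were those of TCONS_00130784 to Naip6 and of TCONS_00067366 to LOC100361993, and neither passed (limma adjusted p = 0.919 and 0.941). TCONS_00067366 had 4.42, 8.21, 2.47, 0.745 and 6.02 FPKM in HFD livers, against 11.5, 15.3 and 24.7 FPKM in ND livers.

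**Figure D5:**
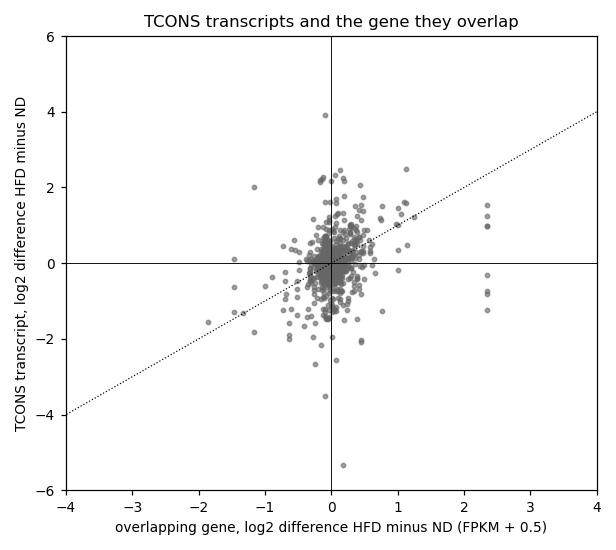
Log2 difference, HFD minus ND, of 742 TCONS transcripts against that of the expressed gene each overlaps, 1 point per transcript, with equality dotted. Most points lie near 0 on both axes, and 56.2% of pairs have the same sign.

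Lists of genes of liver metabolism, written with earlier results of these data known, held few TCONS transcripts. In fatty acid oxidation, 3 of 28 genes found were overlapped by 4 TCONS transcripts. All 4 had higher fitted values on HFD, as had 931 of all 2070 tested TCONS transcripts. Of the 4, 0 passed, and their median log2 difference was 1.34, against -0.02 for all tested lncRNAs. A pair of them lies in Ppara, the receptor gene that switches on fatty acid oxidation. TCONS_00212995 had 139, 74.5, 90.8, 172 and 109.7 FPKM in HFD livers, against 87.6, 50.4 and 38.2 FPKM in ND livers, and TCONS_00224540 had 111, 68.9, 88.0, 179 and 138 FPKM in HFD livers, against 70.0, 44.4 and 20.7 FPKM in ND livers. The diets overlapped for each (limma adjusted p = 0.768 and 0.651), and in HFD livers the highest was HFD-4 and the lowest HFD-2 for both transcripts. Ppara stood at 43.3, 31.5, 44.5, 75.6 and 65.8 FPKM in HFD livers, against 38.6, 22.9 and 16.7 FPKM in ND livers, with the same highest and lowest HFD livers. The others were TCONS_00024512 in Cpt1a, which admits fatty acids to the mitochondrion (52.7 ± 50.1 FPKM in HFD and 18.3 ± 21.8 FPKM in ND livers, limma adjusted p = 0.963), and TCONS_00189930 at the fatty acid hydroxylase gene Cyp4a2 (142 ± 105 FPKM in HFD and 54.0 ± 27.8 FPKM in ND livers, limma adjusted p = 0.963). Among HFD livers, TCONS_00024512 and Cpt1a were both highest in HFD-3 and lowest in HFD-2. TCONS_00189930 did not follow Cyp4a2. HFD-4 was the lowest HFD liver for the transcript (38.9 FPKM) and the highest for the gene (311 FPKM). ND-3 was the highest ND liver for the transcript (75.1 FPKM) and the lowest for the gene (2.39 FPKM).

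In fatty acid and triglyceride synthesis, 2 of 28 genes were overlapped by 3 TCONS transcripts, the pair of the Ppap2b locus and TCONS_00141349, whose locus covers Elovl6 and reaches well beyond it. The last had 1.25, 7.36, 0.262, 1.54 and 1.10 FPKM in HFD livers, against 0.711, 32.1 and 4.87 FPKM in ND livers (limma adjusted p = 0.963), so its ND mean rests on ND-2. Elovl6 was likewise highest in ND-2, at 12.1 FPKM, against 2.04 FPKM in ND-1 and 4.07 FPKM in ND-3. In xenobiotic metabolism 3 of 30 were overlapped by 3 transcripts, 2 with higher fitted values on HFD, and 0 passed. Besides Ces1d and Cyp2c6v1 this was the sulfotransferase gene Sult2a1, where TCONS_00007615 averaged 10.8 ± 4.07 FPKM in HFD and 8.41 ± 3.50 FPKM in ND livers. In the circadian clock list 1 of 18 genes, the transcription factor gene Hlf, was overlapped by 5 transcripts, 3 with higher fitted values on HFD, and 0 passed (limma adjusted p of 0.976 to 0.994). The highest of them, TCONS_00041693, averaged 19.5 ± 10.6 FPKM in HFD and 24.8 ± 2.10 FPKM in ND livers. The lists of apolipoproteins, plasma proteins and amino acid metabolism, with 22, 36 and 30 genes found, had 0 overlapped genes.

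Of the glucose metabolism list, TCONS_00079549 lies in Igfbp1, an insulin-repressed binding protein gene, and had 20.9, 860.3, 503, 131 and 177 FPKM in HFD livers, against 1465, 23.0 and 1243 FPKM in ND livers (limma adjusted p = 0.989). Igfbp1 had 6.74, 98.0, 346, 49.9 and 63.8 FPKM in HFD livers, against 159.7, 5.83 and 129 FPKM in ND livers. Both were lowest in HFD-1 and ND-2.

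TCONS transcripts varied more between livers of the same diet than NONCODE transcripts did. The median within-diet SD of log2(FPKM + 0.5) was 0.737 for TCONS and 0.524 for NONCODE transcripts, and at matched level it was 0.855 and 0.835 between 1 and 10 FPKM, and 0.530 and 0.369 between 10 and 100 FPKM. Below 100 FPKM the spread was larger for TCONS transcripts that share a locus. Between 1 and 10 FPKM the SD was 1.03 for 868 transcripts that share a locus and 0.684 for 506 that are alone at theirs. Between 10 and 100 FPKM it was 0.580 for 320 that share a locus and 0.481 for 261 alone, and sums over all lncRNAs of a locus had 0.466. At 100 FPKM and above it was 0.602 for 40 that share a locus and 0.616 for 18 alone. An on and off pattern, with a lowest library under 0.1 FPKM and a median of at least 5 FPKM, was found in 82 of 1274 transcripts that share a locus (6.44%) and 21 of 796 alone (2.64%). Of all tested TCONS transcripts 103 of 2070 had it (4.98%), and of tested NONCODE transcripts 498 of 17729 (2.81%). These are descriptions, with no test.

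The widest spread was at such loci. TCONS_00239866 (693 nt), 3343 bases from Dlec1, had 0.0234, 0.00721, 0, 63.1 and 60.1 FPKM in HFD livers, against 40.1, 44.2 and 0 FPKM in ND livers. TCONS_00077316 (209 nt), at the UDP-glucuronosyltransferase gene Ugt2a1, had 69.6, 119, 0, 118 and 109 FPKM in HFD livers, against 0, 136 and 145 FPKM in ND livers. Its estimated fragments were few, at 9.45, 14.9, 0, 9.36 and 9.31 in HFD livers, against 0, 10.3 and 16.1 in ND livers. Both TCONS_00239866 and TCONS_00077316 were at or near 0 in some livers of each diet. The Ugt2a1 locus (chromosome 14, 22326822 to 22373069) held 26 TCONS transcripts, the most of any. Their sum was 1436, 1628, 1297, 2872 and 1808 FPKM in HFD livers, against 1541, 1208 and 1560 FPKM in ND livers, so the locus was never near 0. Its highest member, TCONS_00078477, had 113, 122, 111, 194 and 173 FPKM in HFD livers, against 100.3, 76.7 and 131 FPKM in ND livers (limma adjusted p = 0.963). The other loci with the most TCONS transcripts lie outside genes. Their highest members were TCONS_00054235 on chromosome 11 (14.1 ± 8.21 FPKM in HFD and 15.9 ± 12.6 FPKM in ND livers) and TCONS_00259320 on chromosome X (9.38 ± 7.90 FPKM in HFD and 4.98 ± 3.33 FPKM in ND livers). TCONS_00161538 lies in the uridine phosphorylase gene Upp2, and here the gene varied too. The transcript had 0, 1.42, 242, 56.9 and 67.4 FPKM in HFD livers, against 83.7, 0 and 0 FPKM in ND livers. Upp2 had 8.97, 1.39, 123, 63.2 and 111 FPKM in HFD livers, against 107, 4.42 and 3.31 FPKM in ND livers. The same 4 livers, HFD-3, HFD-4, HFD-5 and ND-1, were high for both.

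At the other end, 2 long transcripts barely varied. TCONS_00141086 (6827 nt), whose locus overlaps the end of the cohesin loader gene Nipbl by 7021 bases, stood at 16.9 ± 0.938 FPKM in HFD and 16.6 ± 1.76 FPKM in ND livers. TCONS_00205695 (6538 nt), outside genes, stood at 32.4 ± 2.05 FPKM in HFD and 36.8 ± 2.28 FPKM in ND livers. Their log2 differences were 0.03 ± 0.20 and -0.18 ± 0.16 (limma adjusted p = 0.997 and 0.982).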

How the data were processed

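Per the labels, RNA was extracted from frozen liver and libraries were made with a TruSeq RNA kit; groups and numbers come from sample titles. The submitters' processing notes name TopHat2 2.0.9, Cufflinks 2.2.1, Cuffdiff and the build Rnor_6.0. Deposited were, for genes, counts in whole numbers with FPKM, and for lncRNAs FPKM with a signal, all made by the authors. The deposited signal is estimated fragments times 1 constant per library (83.4% to 84.5% whole within 0.02 up to 20 fragments). The 4 deposited group means were not used. Starts of lncRNA loci are counted from 0 in the deposited table and are printed from 1.

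An lncRNA entered the test when 3 or more libraries reached 0.5 FPKM. Tests were made with limma 3.58.1 (variance trend, log2(FPKM + 0.5), 2-sided) in R 4.3.3, which understates changes of low transcripts. The same test was run on the ratio to the overlapping gene and on the share of the locus. Gene counts were tested with edgeR 4.0.16 (quasi-likelihood) and, as an alternative, DESeq2 1.42.0. Single values used the exact permutation test over 56 arrangements. Adjustment was Benjamini-Hochberg over each whole table, threshold 0.05. The fits were tested on simulated data. Alternatives were other pseudocounts, filters, variance models, scalings, edgeR on rounded fragments, a replicate block, the depth set as covariate and leaving out each library; reading out the depth set itself was chosen after seeing the data.

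Members named are those that passed, 8 per direction by p with diets that do not overlap and mean FPKM of at least 1, the 5 highest overall and outside genes, extremes of length and span, the fullest loci, 2 per gene list, 3 by ratio and by share, the most and least variable, and partners of passing ones. Members differing by depth set and those of the chromosome 4 block, the microRNA loci, the TCONS_00040577 and TCONS_00204310 loci, TCONS_00224540, TCONS_00024512, TCONS_00141349 and TCONS_00007615 were added after their values were seen. The members and lists were chosen with earlier results of these data known. Libraries of 1 diet differed by a chi-square per degree of freedom of at least 25.2, more than sampling noise gives. The labels do not tie libraries to single rats, so p-values measure the spread between these samples. A few members that the rule names are not reported here.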

Additional observations from a re-analysis of the deposited data

Results flagged for a closer look

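In groups of 4 to 10 samples, a library far from the others of its diet was looked for among the 44 named transcripts; about 1 in 20 groups is expected to show one by chance, and 164 of all 2070 tested TCONS transcripts (7.92%) did. HFD-1 was the low one for 3 transcripts of the chromosome 4 block, at 491 FPKM for TCONS_00179823 (3134 to 3812 FPKM in the other HFD livers), 401 FPKM for TCONS_00181862 (1372 to 1722 FPKM) and 75.8 FPKM for TCONS_00180984 (360.3 to 472 FPKM). HFD-4 was high for TCONS_00259320 on chromosome X, at 23.4 FPKM against 4.70 to 7.42 FPKM, and for TCONS_00183685, at 0.0778 FPKM against 0.0106 to 0.0222 FPKM, all of which are under 1 fragment. HFD-3 was at 0 FPKM for TCONS_00077316 of the Ugt2a1 locus, against 69.6 to 119 FPKM.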

How the results depend on the processing

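Of 2070 TCONS transcripts, 1 passed in the diet fit, and 2 passed without the variance trend (TCONS_00204310 added, adjusted p = 0.0181), 2 by edgeR on rounded fragments (TCONS_00040577 added, adjusted p = 0.0470), 0 with the replicate block and 0 to 1 when each library was left out. TCONS_00183685 had adjusted p of 6.45e-05 to 0.352 over the alternatives. In the ratio fit 0 passed with the replicate block and 1 to 2 without each library, and in the share fit 0 with the block and 2 to 3. Same-numbered libraries had correlations of 0.0243, -0.105 and 0.0158, and unlike-numbered ones ran from -0.113 to 0.145. With so few pairs this cannot decide whether the numbers pair the libraries, and the labels do not say. Of overlapped genes 5 passed by DESeq2 and 0 to 1 without each library. The TCONS share of lncRNA FPKM, HFD minus ND, was -0.114 points, 0.188 within the shallow set, which holds 1 ND library, and -0.904 within the deep set. Without each library it ran from -0.355 to 0.129 and turned positive without HFD-1 (0.123), HFD-2 (0.129) or ND-2 (0.0550). Overlap with a gene was 43.5%, 31.5% when 1 gene had to cover at least 0.5 of the locus and 59.1% when a gene within 5000 bases counted. Log2 differences of 2 transcripts that did not pass in the diet fit changed sign. TCONS_00183684 was at -0.0932 with sample weights, -0.232 with the replicate block, -0.0252 by edgeR and -0.220 to 0.403 without each library. Its ratio to Ppap2b was 0.0278 with the depth set as covariate and -0.440 to 0.0536 without each library. TCONS_00079549, at -0.918, was at -2.866 to 0.115 without each library. The cause of these changes was not tested. Counts under 3 fragments limit the fold of low transcripts.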

Other observations

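At the RT1-A2 gene (chromosome 20, 5374985 to 5378539), an MHC class I gene that is highly variable between rats, the level was 29.9, 32.4, 94.3, 8.98 and 0.807 FPKM in HFD livers, against 0.728, 12.3 and 1.61 FPKM in ND livers (edgeR adjusted p = 0.908). Class I genes are near-identical copies, so the split of reads among them is uncertain. TCONS transcripts of the locus that overlaps it (chosen, like the gene, after its values were seen) differed among themselves in which livers were high. TCONS_00144416 had 21.5, 12.3, 12.5, 4.42 and 4.51 FPKM in HFD livers, against 2.75, 4.44 and 7.14 FPKM in ND livers, and TCONS_00147233 was highest in ND-2, at 34.6 FPKM.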
